A study of Homo sapiens with 8 samples.

Results

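The clustered histone genes were the 74 genes of 27945 in the expression table whose symbol begins with HIST1H, HIST2H, HIST3H or HIST4H. They comprised 6 H1, 18 H2A, 20 H2B, 15 H3 and 15 H4 genes. The HIST1 group held 56 of them on chromosome 6, HIST2 held 14 and HIST3 held 3 on chromosome 1, and HIST4 held 1 on chromosome 12. The rule reads names and no expression value; where a symbol had more than 1 transcript (3 members), the transcript with the highest mean level was kept.

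The libraries came from EA.hy926, a line made by fusing umbilical vein endothelial cells with A549 lung carcinoma cells and grown in high-glucose DMEM with fetal bovine serum. The control group held 2 libraries. The ΔE2 group held 3 lines in which enhancer E2 of the super-enhancer SE12313 on chromosome 16 had been deleted with CRISPR/Cas9 ribonucleoprotein. The ΔSE12313-b group held 3 lines lacking SE12313-b, an element of the same super-enhancer that had no activity in reporter assays and was taken along as a negative control. Each deletion line was a single clone, and whether the RNA controls had received guide RNAs is not given in the sources used here. Libraries were made from total RNA after removal of ribosomal RNA, so that transcripts without a poly(A) tail could be captured. The labels name no separate cultures for the controls, so p-values measure only the spread between these 8 libraries, and both deletion groups were compared with the same 2 controls.

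Core histones H2A, H2B, H3 and H4 form the octamer around which DNA is wrapped, and H1 binds the linker DNA between octamers. The clustered genes are mostly replication-dependent: they have no introns, are transcribed during S phase in histone locus bodies organised by NPAT, and yield mRNAs that end in a conserved stem-loop in place of a poly(A) tail. The stem-loop binding protein SLBP holds this hairpin, the U7 small nuclear ribonucleoprotein directs the cleavage behind it, and the mRNAs are degraded once DNA synthesis ends. A separate set of genes outside these clusters codes for replication-independent histones with polyadenylated mRNAs.

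Library totals recovered from the FPKM (fragments per kilobase of transcript, scaled to the reads of the library) were 12067555 to 12696174 reads in controls, 13616465 to 19101149 in ΔE2 and 14814165 to 16085526 in ΔSE12313-b. Read counts summed over the clustered histone genes came to 0.0740% and 0.0738% of the library total in the controls. They came to 1.04%, 0.724% and 0.971% in ΔE2 and to 1.06%, 0.775% and 0.962% in ΔSE12313-b. Identical gene copies entered this sum more than once, so these are not shares of distinct reads. Among 12 endothelial markers 10 passed the filter on low values, with 3 higher and 1 lower in each deletion (1 and 1 with each library centred); PECAM1 was among those that rose, VWF fell, and CLDN5 was at 0 reads in every library. The epithelial keratins KRT7, KRT8 and KRT18 rose in both deletions (3 of 3 tested of 6 listed; 2 and 1 of them in ΔSE12313-b after centring and after quantile normalization), while CDH1 was at 0 in every library and EPCAM at 0 to 0.554 FPKM. The 5 leukocyte markers summed to 0 to 0.126 FPKM, and of 6 fibroblast and mural markers only ACTA2 was tested, falling by 2.80 and 2.52 on the log2 scale. The part of these markers in the histone results was not tested.

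The stem-loop was found in 65 of the 74 members, in 7 forms. HIST2H3A and HIST2H3C are listed at the same interval, so the same hairpin is counted for both. It was searched in the hg19 sequence from 120 bases before to 40 bases after the end of each transcript, as a stem of 6 pairs that opens with GG and closes with CC around a loop of 4 bases beginning with TT. The forms are shown because the hairpin is a feature of the mature mRNA found in all 5 classes. They also set H4 apart, while the other classes share forms. Capitals mark the stem and lower case the loop, written as DNA.
form shared by 38 members of H1, H2A, H2B and H3: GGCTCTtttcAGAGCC
form of 10 H4 members: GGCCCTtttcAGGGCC
form of 10 members including HIST1H1T and HIST1H2BK: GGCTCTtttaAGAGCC
form of 4 H4 members including HIST2H4A and HIST2H4B: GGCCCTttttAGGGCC
form of HIST1H2AG: GGCTCTtttcAGGGCC
form of HIST2H2AC: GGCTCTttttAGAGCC
form of HIST1H2AK: GGTTCTtttcAGAGCC

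The 14 H4 members with a hairpin carried only the forms listed for H4, which no H1, H2A, H2B or H3 member had. No hairpin of these letters lay in the window of 9 members, among them the pseudogenes HIST2H2BA and HIST2H2BC; for HIST2H2AA3, listed at 2 places in the table, it lay on the other strand.

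The bases upstream of 4 genes are shown because these members mark the range of the changes described below: HIST1H2BM and HIST1H3B had the largest increases of the H2B and H3 classes, HIST1H4E the smallest increase of H4, and HIST1H1T was the member that differed between the deletions. Each is the stretch of 250 bases before the RefSeq transcript start on GRCh38.p14, written in the direction of transcription. Capitals mark, on either strand, the CCAAT box (CCAAT), the TATA box (TATAAA), the octamer (ATTTGCAT), an E2F motif (TTTCGCGC or its variant TTTGGCGC) and the H4 element (GGTCCG).
HIST1H2BM, chr6:27814772-27815021, plus strand: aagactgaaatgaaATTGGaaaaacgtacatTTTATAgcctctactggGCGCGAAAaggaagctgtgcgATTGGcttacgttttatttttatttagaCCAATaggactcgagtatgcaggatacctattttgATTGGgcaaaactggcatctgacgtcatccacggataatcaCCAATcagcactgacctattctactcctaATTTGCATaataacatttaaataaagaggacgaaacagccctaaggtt
HIST1H3B, chr6:26032100-26032349, minus strand: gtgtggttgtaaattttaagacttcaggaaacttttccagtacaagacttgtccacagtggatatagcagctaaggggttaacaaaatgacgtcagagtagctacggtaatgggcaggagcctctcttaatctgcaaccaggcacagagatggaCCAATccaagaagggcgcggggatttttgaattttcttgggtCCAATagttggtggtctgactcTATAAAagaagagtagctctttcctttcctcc
HIST1H4E, chr6:26204360-26204609, plus strand: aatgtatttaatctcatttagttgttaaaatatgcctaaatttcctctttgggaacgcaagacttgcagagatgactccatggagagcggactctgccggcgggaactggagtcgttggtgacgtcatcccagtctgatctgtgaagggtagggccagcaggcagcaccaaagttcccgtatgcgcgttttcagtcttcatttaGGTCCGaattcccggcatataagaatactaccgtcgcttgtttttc
HIST1H1T, chr6:26108136-26108385, minus strand: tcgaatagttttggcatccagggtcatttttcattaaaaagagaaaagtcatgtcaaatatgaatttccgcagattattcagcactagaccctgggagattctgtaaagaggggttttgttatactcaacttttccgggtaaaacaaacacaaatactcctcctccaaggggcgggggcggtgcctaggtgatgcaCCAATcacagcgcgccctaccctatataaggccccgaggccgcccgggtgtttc

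The first question was how far the summed histone mRNA level of each deletion lay from that of the controls. The sum over all members was 1584 and 1583 FPKM in the controls. It was 21991, 15414 and 20601 FPKM in ΔE2 replicates 1 to 3, and 22113, 16087 and 19933 FPKM in the ΔSE12313-b replicates. Every deletion library thus lay far above both controls, by 12.2-fold on average in each deletion (n = 3 against 2), while the spread within a deletion group was 3466 FPKM (SD) in ΔE2 and 3051 FPKM in ΔSE12313-b. In bulk RNA, more cells that carry these mRNAs and more of them per cell cannot be told apart. For both deletions the paper reports a smaller share of cells in S phase and less proliferation than in control cells. Those assays were made apart from these libraries, and their relation to the histone level was not tested. Identical gene copies entered this sum more than once; counting them once gave 11.3-fold and 11.4-fold.

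All 5 classes were higher, and H3 stood out in size. H3 genes summed to 109 and 104 FPKM in the controls, to 4415, 2684 and 3861 FPKM in ΔE2, and to 4729.7, 3295 and 4031 FPKM in ΔSE12313-b, which is 34.2-fold and 37.6-fold. H4, the class with the highest level, went from 793 and 832 FPKM to 8497, 6431 and 8172 FPKM in ΔE2 and to 7795, 5476 and 7167 FPKM in ΔSE12313-b, or 9.48-fold and 8.39-fold. In every class the lowest deletion library lay above the highest control. H1 rose 11.5-fold and 12.7-fold, H2A 11.4-fold and 12.6-fold, and H2B 13.1-fold and 13.4-fold in ΔE2 and ΔSE12313-b, as group means. Identical gene copies entered the H2A, H3 and H4 sums more than once. Counted once, H3 rose 31.9-fold and 34.5-fold, H4 8.05-fold and 7.21-fold, and H2A 11.4-fold and 12.5-fold.

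**Figure D1:**
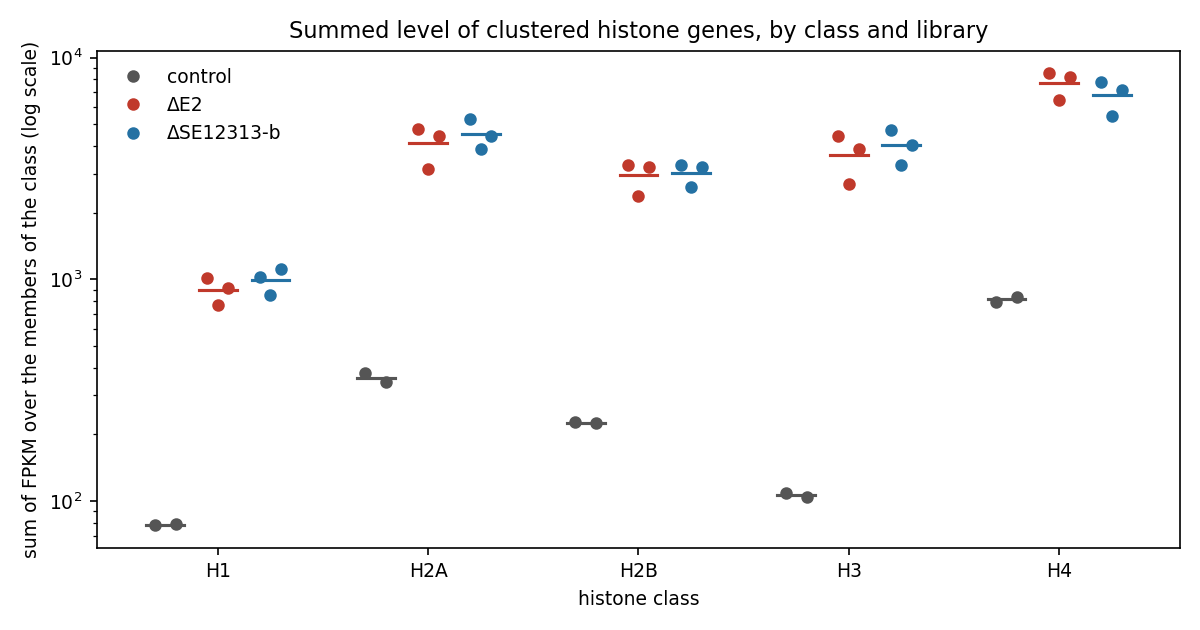
Sum of FPKM over the members of each histone class (log axis) in each library, with points for libraries and bars for group means (control n = 2, deletions n = 3). Both controls lie below all 6 deletion libraries in each class, the gap being widest for H3, at 34.2-fold in ΔE2. Identical gene copies enter the H2A, H3 and H4 sums more than once, and with these counted once H3 is at 31.9-fold.

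Gene by gene, 67 members passed the filter of at least 0.5 FPKM in at least 2 of the 8 libraries and were tested: 5 H1, 16 H2A, 19 H2B, 14 H3 and 13 H4. Because deletion libraries alone could carry a gene past this filter, the number that also reached 0.5 FPKM in both controls is given, which was 62. In ΔE2, 67 of the 67 tested members rose and 0 fell, by limma with a Benjamini-Hochberg adjusted p under 0.05 and at least 2-fold, against 11.2% of all 13789 tested genes that rose and 8.36% that fell. In ΔSE12313-b, 66 rose and 0 fell, HIST1H1T being the one not called, against 14.7% and 7.83% of all tested genes. With each library centred on the median ratio, the split over all tested genes turned from 1544 higher and 1153 lower to 1170 and 1464 in ΔE2, and from 2032 and 1080 to 1201 and 1570 in ΔSE12313-b, while no member was called lower. The largest adjusted p among called members was 0.0274 in ΔE2 and 0.0411 in ΔSE12313-b (limma, Benjamini-Hochberg), both for HIST1H2BB.

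The median log2 fold change of the tested members was 3.90 in ΔE2 and 3.80 in ΔSE12313-b, against medians of 0.14 and 0.27 over all tested genes. By class the medians in ΔE2 were 3.53 for H1, 3.91 for H2A, 3.68 for H2B, 4.66 for H3 and 3.57 for H4. In ΔSE12313-b they were 3.41, 3.97, 3.74, 4.54 and 3.11 in the same order. The mean level was at least 10-fold higher in both deletions for 44 members. All libraries of the deletion lay above both controls for 67 members in ΔE2 and 66 in ΔSE12313-b, against 44.8% and 51.5% of all tested genes.

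**Figure D2:**
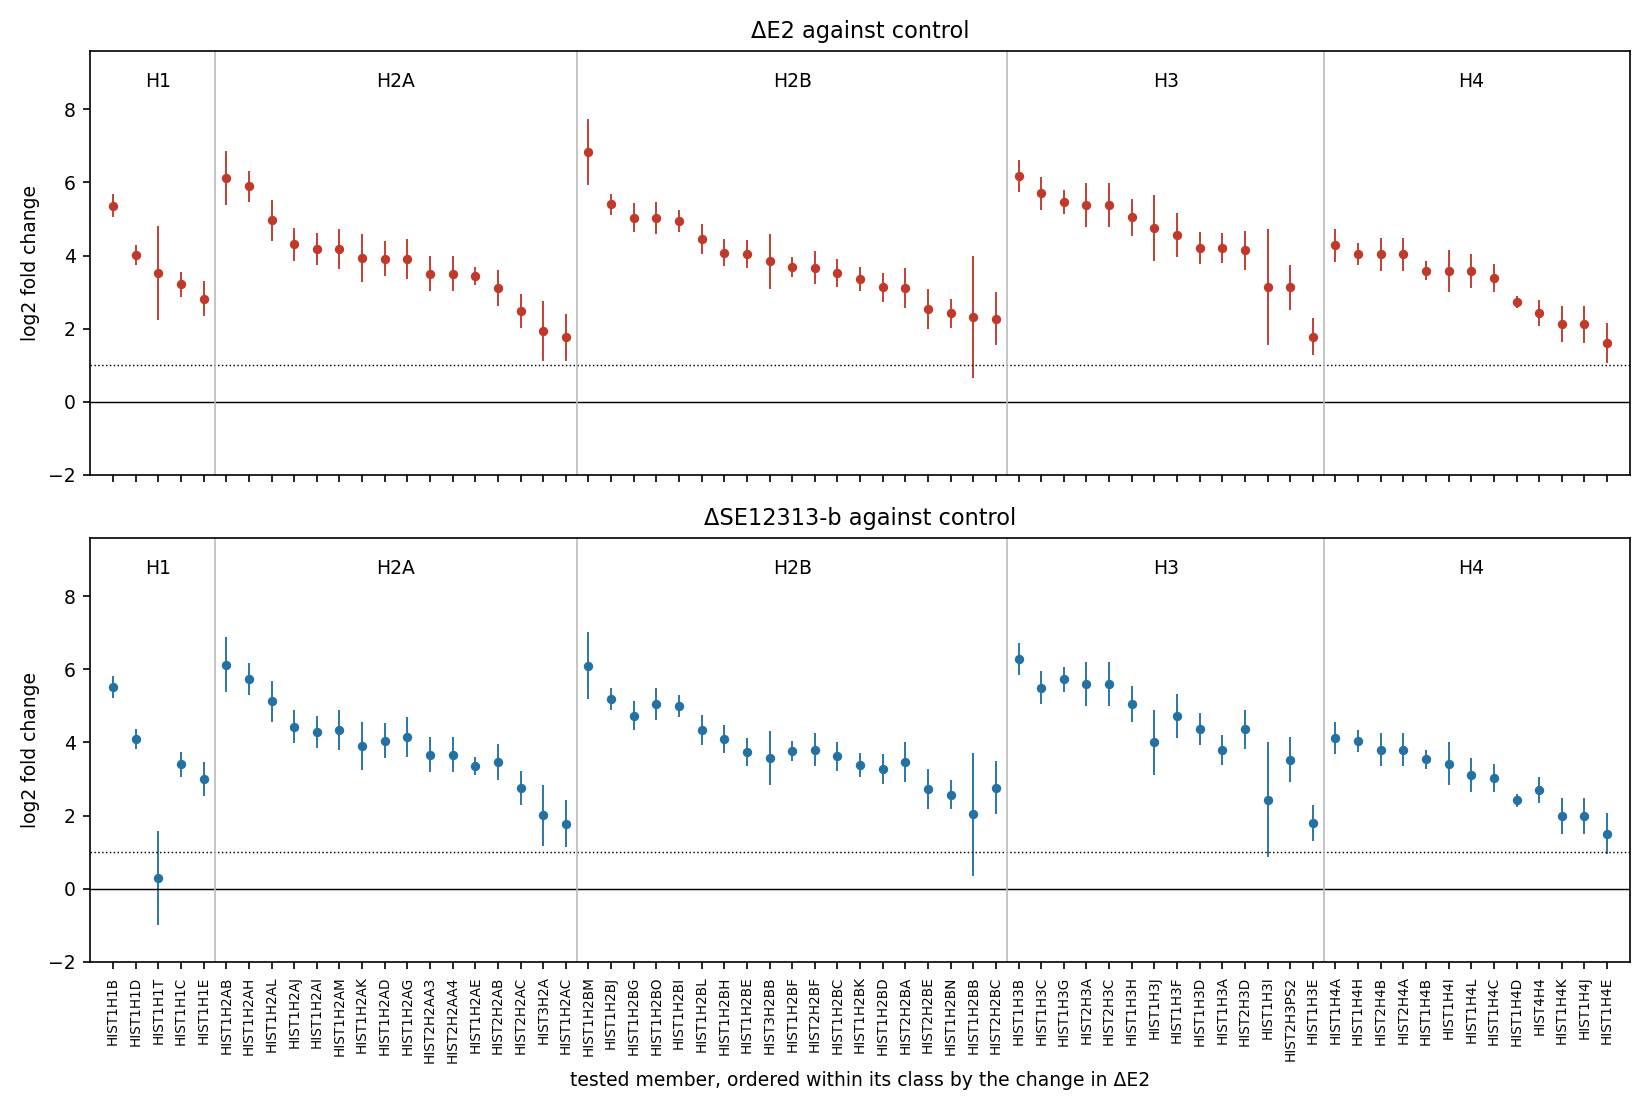
Log2 fold change (vertical axis) of each of the 67 tested members in ΔE2 (upper panel) and ΔSE12313-b (lower panel), with 95% intervals from limma and a dotted line at 2-fold. All points but that of HIST1H1T in ΔSE12313-b lie above the dotted line, from 1.61 to 6.82 in the upper panel.

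Among the linker histone genes, HIST1H1C (chr6:26055968-26056699, minus strand, hg19) had the highest level. It measured 35.4 and 33.4 FPKM in the controls, 361, 284 and 320.1 FPKM in ΔE2, and 366, 312 and 430.3 FPKM in ΔSE12313-b. The 6 deletion libraries were all above the controls and overlapped each other. On the log2 scale HIST1H1C rose by 3.21 ± 0.147 (SE; adjusted p = 1.97e-06) in the ΔE2 lines and by 3.41 (adjusted p = 1.33e-06) in the ΔSE12313-b lines (limma, Benjamini-Hochberg). HIST1H1B was low in the controls, at 3.30 and 3.48 FPKM, and rose most within the class, by 5.37 and 5.51 on the log2 scale. HIST1H1D rose by 4.02 and 4.10 and HIST1H1E by 2.82 and 3.01. HIST1H1T codes for the linker histone of the testis and is described with the comparison of the deletions.

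Among H2A genes, HIST2H2AA3 had the highest level, which is that of 2 identical copies, HIST2H2AA3 and HIST2H2AA4. The place listed for it was chr1:149822628-149823161, minus strand, 1 of 2. The hairpin there lay on the other strand, so this interval may be that of HIST2H2AA4. HIST2H2AA3 measured 105 and 87.1 FPKM in the controls, 1248, 851 and 1206 FPKM in ΔE2, and 1481, 1062 and 1139 FPKM in ΔSE12313-b. No deletion library came near the controls, and HIST2H2AA3 rose by 3.51 ± 0.204 (adjusted p = 7.00e-06) and 3.67 (adjusted p = 4.66e-06) on the log2 scale (limma, Benjamini-Hochberg). HIST1H2AB (chr6:26033320-26033796, minus strand) was near 1 FPKM in the controls, with 0.663 and 1.57, and reached 93.9, 60.9 and 85.2 FPKM in ΔE2 and 93.8, 70.8 and 73.8 FPKM in ΔSE12313-b. At the pseudocount used this was the largest increase of the class, by 6.12 ± 0.323 (adjusted p = 4.19e-06) with E2 deleted and by 6.13 (adjusted p = 3.57e-06) with SE12313-b deleted, again on the log2 scale and by limma with Benjamini-Hochberg adjustment; with a pseudocount of 1 it was 5.27 in each.

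At the other end of the H2A class stood HIST1H2AC (chr6:26124373-26124918, plus strand), with 35.4 and 44.4 FPKM in the controls, 185, 102 and 132 FPKM in ΔE2, and 142, 103 and 173 FPKM in ΔSE12313-b. The groups still did not overlap. Its increase was 1.77 ± 0.278 (adjusted p = 0.00114) in ΔE2 and 1.78 (adjusted p = 0.000918) in ΔSE12313-b on the log2 scale (limma, Benjamini-Hochberg). The other tested H2A members lay between, for example HIST1H2AH at 5.90 and 5.74 and HIST2H2AC at 2.49 and 2.75. HIST3H2A, from the small HIST3 group, rose by 1.94 and 2.01.

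The H2B gene with the highest level, HIST2H2BF (chr1:149783434-149783928, minus strand), measured 27.7 and 32.7 FPKM in the controls, 444, 310.4 and 409 FPKM in ΔE2, and 472, 336 and 472 FPKM in ΔSE12313-b. Both deletion groups were separate from the controls. HIST2H2BF rose by 3.67 ± 0.197 (adjusted p = 4.63e-06) and 3.80 (adjusted p = 3.32e-06) on the log2 scale (limma, Benjamini-Hochberg). HIST1H2BM (chr6:27782822-27783267, plus strand), whose upstream bases are shown above, was barely detected in the controls, at 1.07 and 0.374 FPKM, and measured 103, 63.4 and 90.8 FPKM in ΔE2 and 53.7, 38.1 and 64.9 FPKM in ΔSE12313-b. The highest ΔSE12313-b library of HIST1H2BM lay just above the lowest ΔE2 library. Its log2 fold change, 6.82 ± 0.392 (adjusted p = 6.51e-06) in ΔE2 and 6.10 (adjusted p = 1.01e-05) in ΔSE12313-b, was the largest of all members in ΔE2 by limma with Benjamini-Hochberg adjustment. It rests on 6 and 2 control reads: in ΔE2 it was 7.47 without control 1 and 6.17 without control 2, and 5.66 with a pseudocount of 1, under the 5.94 of HIST1H3B; in ΔSE12313-b it was 6.75 and 5.45 without these controls. HIST1H2BJ, HIST1H2BG, HIST1H2BO and HIST1H2BI rose by 4.95 to 5.40 in ΔE2, and the pseudogene HIST2H2BC by 2.28.

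Among H3 genes, HIST2H3C was listed at the same interval as HIST2H3A (chr1:149812259-149812765, minus strand). HIST2H3C measured 24.1 and 21.0 FPKM in the controls, 1211, 672 and 1004 FPKM in ΔE2, and 1365, 871 and 1106 FPKM in ΔSE12313-b. The lowest deletion library was thus far above the controls. HIST2H3C rose by 5.37 ± 0.261 (adjusted p = 2.62e-06) and 5.60 (adjusted p = 1.99e-06) on the log2 scale (limma, Benjamini-Hochberg). HIST1H3B (chr6:26031817-26032288, minus strand) measured 4.19 and 5.64 FPKM in the controls, 429, 283 and 383 FPKM in ΔE2, and 405, 357 and 405 FPKM in ΔSE12313-b. Its deletion libraries ranged from 283 to 429 FPKM, and the 2 deletion groups overlapped. The increase was 6.18 ± 0.188 (adjusted p = 3.53e-07) in ΔE2 and 6.29 (adjusted p = 3.47e-07) in ΔSE12313-b on the log2 scale (limma, Benjamini-Hochberg). The latter was the largest of all members in ΔSE12313-b.

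HIST1H3E (chr6:26225383-26225844, plus strand) was the H3 member that moved least. It measured 2.92 and 1.81 FPKM in the controls, 9.58, 8.40 and 6.72 FPKM in ΔE2, and 8.94, 7.50 and 8.23 FPKM in ΔSE12313-b, so that its level stayed low in every library without overlap. HIST1H3E rose by 1.78 ± 0.215 (adjusted p = 0.000307) and 1.79 (adjusted p = 0.000236) on the log2 scale (limma, Benjamini-Hochberg). HIST1H3C, HIST1H3G and HIST1H3H rose by 5.05 to 5.70 in ΔE2 and by 5.05 to 5.72 in ΔSE12313-b.

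The H4 gene HIST2H4B (chr1:149832330-149832725, minus strand), identical to HIST2H4A, had the highest level of all members. It measured 130.3 and 146 FPKM in the controls, 2452, 1882 and 2492 FPKM in ΔE2, and 2354, 1532 and 1976 FPKM in ΔSE12313-b. Controls and deletions did not overlap, and HIST2H4B rose by 4.03 ± 0.195 (adjusted p = 2.62e-06) and 3.80 (adjusted p = 3.19e-06) on the log2 scale (limma, Benjamini-Hochberg). HIST1H4E (chr6:26204873-26205249, plus strand) was also high in the controls, at 104 and 103 FPKM, but reached only 379, 289 and 286 FPKM in ΔE2 and 284, 219 and 407 FPKM in ΔSE12313-b. This was the smallest increase of all members called in both deletions, 1.61 ± 0.240 (adjusted p = 0.000892) in ΔE2 and 1.502 (adjusted p = 0.00103) in ΔSE12313-b by limma with Benjamini-Hochberg adjustment; after quantile normalization the latter was 0.97, under 2-fold. HIST1H4A rose most within the class, by 4.28 and 4.12. HIST4H4, the gene on chromosome 12, rose by 2.43 and 2.69.

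**Figure D3:**
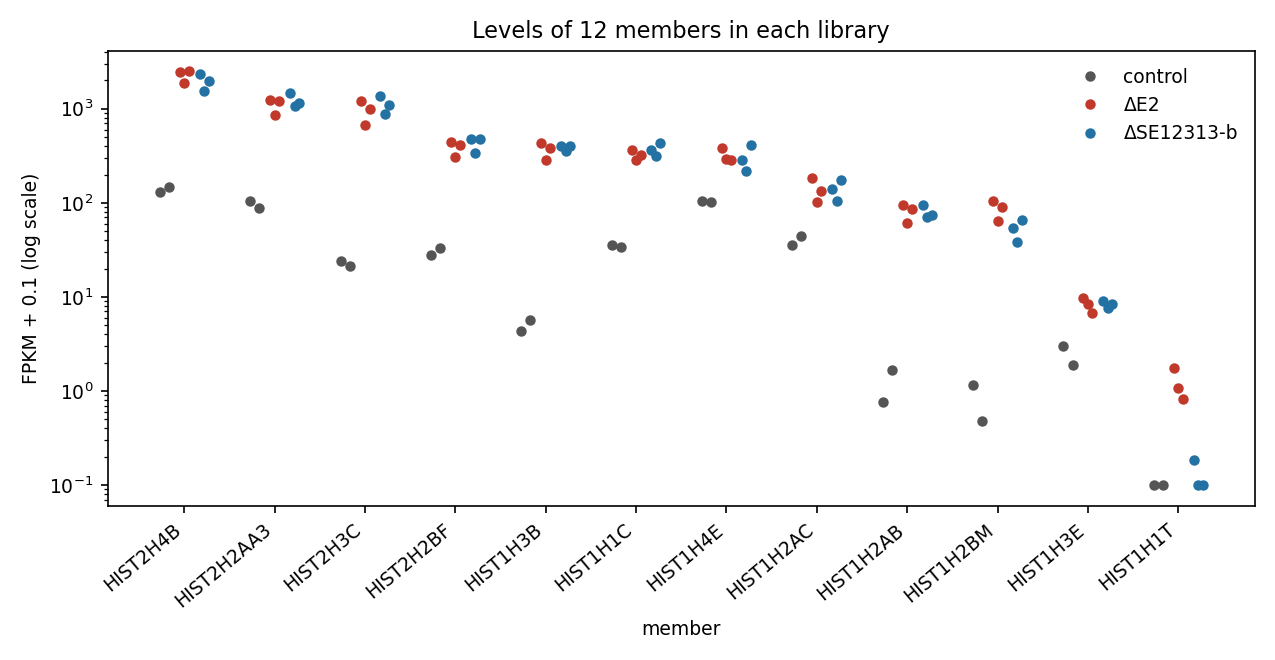
FPKM plus 0.1 (log axis) of 12 members in each library, with points for libraries of the control, ΔE2 and ΔSE12313-b groups. For all members shown except HIST1H1T, the 6 deletion libraries lie above both controls, for HIST2H4B at 1532 to 2492 FPKM against 130.3 and 146 FPKM.

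A few members rested on very few reads. HIST1H1T, HIST1H2BB and HIST1H3I had 0 reads in both controls, so a fold is at most a lower bound set against 3 reads per library, which covers counting error only. HIST1H3I had 5, 9 and 5 reads in ΔE2 and 1, 3 and 9 reads in ΔSE12313-b, or at least 1.59-fold and 1.14-fold higher; its fitted log2 value in ΔSE12313-b, 2.43, was 3.05 without replicate 1 and 1.80 without replicate 3. HIST1H2BB had 3, 1 and 6 reads in ΔE2 and 4, 1 and 2 in ΔSE12313-b, for which no bound above 1 could be given; its calls at a log2 fold change of 2.32 and 2.03 were lost without either control and with a pseudocount of 1. HIST1H3J had 1 and 0 reads in the controls against 104 reads in all in ΔE2 and 57 in ΔSE12313-b. The ratio was 51.7 (exact 95% interval 9.07 to 2060) and 30.2 (5.20 to 1212) per library read. These intervals pool the libraries of each group and cover counting error only. With the members at 0 placed at their bound the medians were 3.90 and 3.80, and could not move, since these members lay below the medians already.

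The 7 members not tested had at most 3 reads in any library: HIST1H1A, HIST1H2AA, HIST1H2APS1, HIST1H2BA, HIST1H4F, HIST1H4G and HIST3H3. Of these, HIST1H2BA and HIST3H3 code for histones of the testis, and HIST1H2APS1 is a pseudogene. HIST1H2APS1, HIST1H4G and HIST3H3 were at 0 in all 8 libraries.

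The ΔE2 and ΔSE12313-b lines were then compared directly, since SE12313-b had been chosen as the element without activity in reporters. HIST1H1T (chr6:26107640-26108364, minus strand) was the 1 member called higher in ΔE2 and 0 members were called lower, against 1.6% and 2.63% of all tested genes (221 higher and 362 lower, or 287 and 244 with each library centred). HIST1H1T had 0 and 0 reads in the controls, 23, 12 and 7 reads in ΔE2 (1.67, 0.971 and 0.712 FPKM), and 1, 0 and 0 reads in ΔSE12313-b. All 3 ΔE2 libraries lay above every other library, at a level that remained low. HIST1H1T passed the filter on low values through the ΔE2 libraries alone, so that a difference was a condition of its being tested, and a share of 1 in 67 members is near that of all genes. The direct log2 difference was 3.23 ± 0.497 (SE; 95% interval 2.08 to 4.38; adjusted p = 0.00339; limma, Benjamini-Hochberg), and the ratio of summed reads, 42 against 1, was 39.4 (exact 95% interval 6.70 to 1594, which pools the clones and covers counting error only). The direct log2 difference itself went from 1.02 with a pseudocount of 1 to 5.64 with 0.01. Against control, HIST1H1T rose by 3.53 (adjusted p = 0.00117) in ΔE2, at least 3.33-fold, and its value in ΔSE12313-b was 0.30 (adjusted p = 0.665; limma, Benjamini-Hochberg).

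For the other members, the direct 95% interval lay within 2-fold in either direction for 61 of 67; the exceptions were HIST1H1T, HIST1H2BB, HIST1H2BM, HIST1H3I, HIST1H3J and HIST2H2BC. The largest direct log2 difference apart from HIST1H1T was 0.76, for HIST1H3J, and the median width of the interval was 0.83. At an unadjusted p under 0.05, 5 of the 67 members were higher in ΔE2 and 0 lower, against 10.5% and 28.3% of all tested genes: HIST1H1T, HIST1H3A (0.40), HIST1H4C (0.36), HIST1H4D (0.31) and HIST1H4L (0.46). The count of members in either direction depends on the processing. In either direction it was 10 with each library centred, 12 after quantile normalization, 12 with the replicate number as a block and 14 with voom. It ranged from 2 to 14 over 21 alternatives. HIST1H4D had an adjusted p of 0.0136 (limma, Benjamini-Hochberg) but a difference under 2-fold. The 3 ΔE2 libraries were all above the 3 ΔSE12313-b libraries for HIST1H1T, HIST1H4D and HIST1H3J, and the reverse held for 0 members, against 11% and 29.8% of all tested genes.

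The unequal increases changed the composition of the histone mRNA pool. With identical copies counted once, H4 made up 50.001% and 51.6% of the summed level in the controls, 35.4%, 37.9% and 35.7% in ΔE2, and 32.2%, 31.2% and 33.0% in ΔSE12313-b. H3 went the other way, from 6.44% and 6.27% in the controls to 18.8%, 16.8% and 18.0% in ΔE2 and 19.9%, 19.2% and 18.6% in ΔSE12313-b. For both classes the control libraries lay outside the range of the deletions, and the shares of H4 were lower in all ΔSE12313-b than in all ΔE2 libraries. H1 held 5.90% ± 0.0355 (SD, n = 2), 6.03% ± 0.350 and 6.63% ± 0.547 (n = 3) in control, ΔE2 and ΔSE12313-b, and H2B 17.0% ± 0.124, 19.8% ± 0.556 and 20.1% ± 0.702. These shares are descriptions and were not tested.

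**Figure D4:**
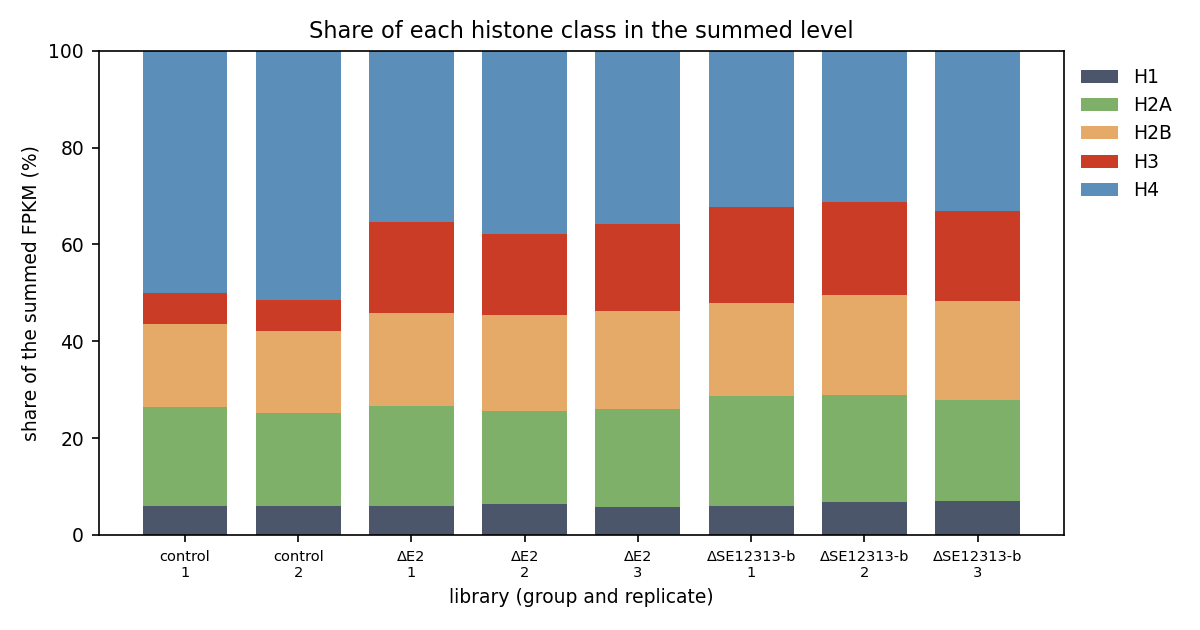
Share of the summed FPKM (percent, identical copies counted once) held by each histone class in each of the 8 libraries, as stacked bars. The H4 part falls from 50.001% and 51.6% in the controls to 31.2% to 37.9% in the deletions, and the H3 part grows from 6.27% and 6.44% to 16.8% to 19.9%. HIST1H4J and HIST1H4K, which are largely alike in sequence, were both kept in the H4 part.

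The shares of single members within their class shifted too. HIST1H1B went from 4.33% of the H1 level in the controls to 16.1% in each deletion, HIST1H3B from 5.84% of H3 to 13.6% and 13.5%, and HIST2H4A from 20.5% of H4 to 41.9% and 40.1%. HIST1H4E fell from 15.4% of H4 to 5.89% and 6.20%, HIST1H4K from 21.5% to 11.7% and 11.997%, and HIST2H2AC from 15.7% of H2A to 7.88% and 8.57%. To keep the same control library from setting both axes, 53 members with at least 20 reads in control 1 were ordered by control 1 and their change taken against control 2. The 18 members lowest in control 1 had a median log2 ratio of 4.46 in ΔE2 and 4.38 in ΔSE12313-b, the middle 18 had 3.88 and 3.97, and the highest 17 had 3.33 and 3.45.

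Position in the genome was examined next. The HIST1 members lay between bases 25726291 and 27861669 of chromosome 6 (hg19), in 4 blocks when gaps over 100000 bases were taken as borders. The 3 members of the first block were not tested. The second (26017260 to 26285727, 29 of 32 members tested) had medians of 3.92 and 3.77 on the log2 scale in ΔE2 and ΔSE12313-b, the third (27100095 to 27115341, 5 members) 3.90 and 4.16, and the fourth (27775257 to 27861669, 16 members) 4.24 and 4.31. The group medians were 4.03 and 4.02 for HIST1, 3.51 and 3.67 for HIST2, 2.89 and 2.78 for the 2 tested HIST3 members, and 2.43 and 2.69 for HIST4H4. Members rose at each of these sites that held a tested member.

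Many H2A and H2B genes lie head to head and share the bases between their starts. There were 11 such pairs with starts at most 500 bases apart, and their members did not move by equal amounts. HIST1H2BK rose by 3.36 in ΔE2 and its partner HIST1H2AH by 5.90, whereas HIST2H2BE and HIST2H2AC rose by 2.53 and 2.49. The median absolute difference within pairs was 1.52 in ΔE2 and 1.33 in ΔSE12313-b on the log2 scale, against 1.09 and 0.98 over all 304 combinations of a tested H2A with a tested H2B member.

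Sequence likeness limits how far single members can be separated. Stretches of 75 bases, the read length, were compared over the genomic span of each listed transcript, introns included. Of the 74 spans 29 shared at least 1 such stretch with another member, and for 13 these made up over 50% of the span. For members with introns this is not a share of the mature transcript. HIST2H2AA3 and HIST2H2AA4, and HIST2H4A and HIST2H4B, were identical and their values cannot be told apart. HIST2H3A and HIST2H3C are listed at the same interval, so for them the search compared a stretch with itself. Their values cannot be told apart either. HIST1H4J and HIST1H4K shared 90.4% and 91.1% of such stretches, and HIST1H2AI and HIST1H2AJ 65.3% and 70.7%. HIST1H2AD lay wholly within the genomic span of the listed HIST1H3D transcript. For 3 members the table also held a longer transcript. Its increase in ΔE2 was 8.34-fold against 8.86-fold for HIST1H2BD, 8.11-fold against 10.4-fold for HIST1H2BK and 12.8-fold for both transcripts of HIST2H2BF.

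The size of the change was also set against the hairpins shown above. For the 36 tested members with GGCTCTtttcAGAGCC the median log2 fold changes in the deletions of E2 and SE12313-b were 4.19 and 4.31, and for the 8 with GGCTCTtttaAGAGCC they were 3.52 and 3.55. The H4 forms had 3.05 and 2.86 (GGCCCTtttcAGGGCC, 8 members) and 3.80 and 3.61 (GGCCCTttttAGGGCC, 4 members). Among these 4 members HIST2H4A and HIST2H4B are identical, so their values are not separate measurements. HIST1H4K, also among them, shared 91.1% of its stretches of 75 bases with HIST1H4J, which has the other H4 form. The medians of the H4 forms are therefore not independent of each other. The 8 tested members in whose window no hairpin was found had 3.12 and 3.28, and all of them rose in both deletions. The H4 forms occurred in H4 members only, so medians by form and by class are not separate descriptions.

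Promoter windows of 300 bases, from 250 before to 50 after the RefSeq start, were matched for 66 of the 74 members. Windows of genes that lie head to head can overlap and hold the same letters, as for HIST1H2AG and HIST1H2BJ. HIST1H2AD and HIST1H3D have the same window. Counts of members with a motif are therefore not counts of separate sites. CCAAT was present on either strand in 84.8% of them, in every H1, H2A, H2B and H3 window and in 3 of 13 H4 windows, against 34.6% of all 35116 RefSeq promoter windows. TATAAA was present in 66.7% against 11.5%. The octamer ATTTGCAT, known from H2B promoters, was present in 14 of 18 H2B and 11 of 16 H2A windows and in 39.4% of all members, against 1.77%. An E2F motif, searched as TTTCGCGC or TTTGGCGC, was present in 18.2% against 1.15%, and GGTCCG in 12 of 13 H4 windows and 22.7% of all members, against 11.3%.

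Among the members with a promoter window that were tested, those with the E2F letters had medians of 4.38 and 4.39 on the log2 scale (12 members, ΔE2 and ΔSE12313-b), and without them 3.58 and 3.64. Several of these 12 lie head to head in overlapping windows that hold the same site. With CCAAT it was 3.94 and 3.91 (51 members), and without 2.72 and 2.69 (9 members). The 14 tested members with GGTCCG, of which 11 are H4, had 3.15 and 2.93, against 4.03 and 4.06 without. No list of letters separated the members, since the ranges with and without each of them overlapped.

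The clones of each deletion kept an order across members. Replicate 2 had the lowest value of its group for 63 of the 67 tested members in ΔE2 and again for 63 in ΔSE12313-b, with median log2 deviations from the group mean of -0.33 and -0.23. Replicate 1 was highest for 49 and 42 members. Replicate 2 also had the highest level of the nuclear RNA MALAT1 in each deletion, 532 FPKM against 317 and 266 in ΔE2 and 294 FPKM against 156 and 152 in ΔSE12313-b; its part in the histone result was not tested. Leaving out replicate 2 moved the log2 ratio of the summed level, 3.61 in each deletion, to 3.75 and 3.73.

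Histone genes outside the clusters moved less as a group. The list named replication-independent held 12 such genes, of which 11 were tested. In each deletion 5 of them rose and 0 fell (4 and 0 after centring or quantile normalization). The medians were 0.61 in ΔE2 and 0.72 in ΔSE12313-b, and whether each gene fits the name was not tested. CENPA, the H3 variant of the centromere, measured 0.388 and 0.350 FPKM in the controls, 15.1, 14.3 and 16.1 FPKM in ΔE2 and 15.5, 15.3 and 14.1 FPKM in ΔSE12313-b, an increase of 5.02 and 5.01 on the log2 scale. H2AFX, whose product is phosphorylated at DNA breaks, rose by 2.62 and 2.40, H2AFZ, an H2A variant of promoters, by 2.04 and 2.01, and H2AFV, its close relative, by 1.65 and 1.64. H3F3A and H3F3B, which both code for the replication-independent H3, were not called, at 0.61 and 0.72 and at 0.06 and -0.03.

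Of 26 genes for the synthesis and processing of histone mRNA, 10 rose and 0 fell in each deletion (medians 0.81 and 0.86), which became 6 and 7 with each library centred. CCNA2, a cyclin of S phase, measured 1.79 and 1.54 FPKM in the controls, 37.6, 31.6 and 40.3 FPKM in ΔE2 and 26.2, 25.2 and 20.3 FPKM in ΔSE12313-b, an increase of 4.37 and 3.76. CCNE2, a cyclin of S phase entry, rose by 4.03 and 3.83, E2F1, a transcription factor of the same step, by 3.29 and 3.42, and CCNE1 by 2.01 and 2.20. SLBP measured 14.2 and 12.4 FPKM in the controls, 27.3, 25.8 and 26.7 FPKM in ΔE2 and 30.9, 29.4 and 29.0 FPKM in ΔSE12313-b. SLBP thus rose by 1.00 and 1.16, just past 2-fold, and by 0.84 and 0.87 with each library centred, under 2-fold. NPAT, at 0.86 and 0.50, did not reach 2-fold. Cyclins moved with the histone genes, and their part in the histone result was not tested.

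Of 24 histone chaperones and importers, 10 rose in ΔE2 and 14 in ΔSE12313-b, and 0 fell (medians 0.87 and 1.09); with each library centred 9 and 11 rose. ASF1B, which hands H3 and H4 to the replication fork, rose by 4.28 and 3.72, HJURP, the chaperone of CENPA, by 4.18 and 3.86, MCM2, a helicase subunit that binds H3 and H4, by 2.99 and 3.09, and CHAF1A, a subunit of chromatin assembly factor, by 2.56 and 2.26.

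Other RNAs that ribosomal depletion retains did not rise as a group. Of 24 listed RNAs without a poly(A) tail 18 were in the table and tested; 3 rose and 7 fell in ΔE2, and 0 rose and 7 fell in ΔSE12313-b, with medians of -0.40 and -0.66. MALAT1, which ends in a triple helix, measured 2588 and 2619 FPKM in the controls, 317, 532 and 266 FPKM in ΔE2 and 156, 294 and 152 FPKM in ΔSE12313-b, so that it fell by 2.87 and 3.77 on the log2 scale. NEAT1, which is among the 7 but whose listed short form is known to carry a poly(A) tail, fell by 2.28 and 2.91, and SCARNA7, a small Cajal body RNA, by 2.35 and 2.08. RNU11, of the minor spliceosome, had 0 and 1 reads in the controls, and was called higher in ΔE2 at 3.79 but not in ΔSE12313-b at 2.36.

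Genes that lie among the histone genes were near the controls. Of 32 other genes between the first and the last HIST1 member 15 were tested; 2 rose in ΔE2 and 1 in ΔSE12313-b, 0 fell, and the medians were 0.09 and 0.17. HFE, a gene of iron uptake, rose by 1.12 and 1.75 and the zinc finger gene ZNF184 was at 1.02, called, and 1.00, not called. With each library centred, 0 of these genes were called in ΔE2.

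**Figure D5:**
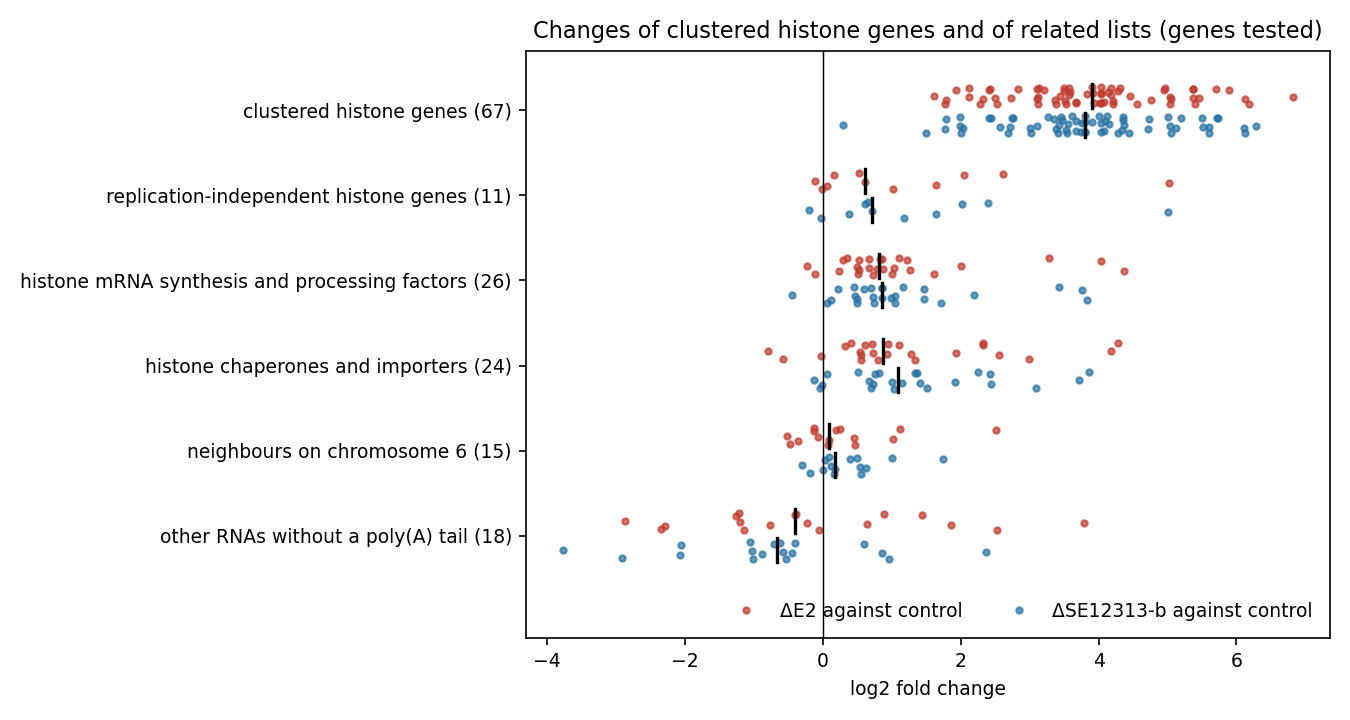
Log2 fold change (horizontal axis) of every tested gene of the clustered histone genes and of 5 lists, against control, with points for genes, black bars for medians and the number of genes tested in brackets. The clustered histone genes lie around 3.90 and 3.80, the other lists around medians from -0.66 to 1.09.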

How the data were processed

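The authors trimmed the single-end 75 base reads with Trim Galore 0.4.4 and mapped them to GRCh37/hg19 with STAR 2.5.4b. The deposited values are FPKM per RefSeq transcript (65572 transcripts) for 2 control, 3 ΔE2 and 3 ΔSE12313-b libraries; featureCounts with Gencode is the counting step the methods name, but the rows here are RefSeq transcripts, and the tool, strand and multi-mapping settings behind them are not given in the sources used here. Near-identical genes may therefore share reads. In each library 100% of the low FPKM checked (up to 20 reads, transcripts under 5000 bases) were whole reads within 0.1 read, which gave the totals.

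1 transcript per symbol, that with the highest mean, was kept (27945 genes; 42 transcripts without a symbol were left out). Genes with at least 0.5 FPKM in at least 2 libraries (13789) were fitted as log2(FPKM + 0.1) over all 8 libraries with limma 3.58.1 (R 4.3.3), using empirical Bayes with a variance trend and two-sided tests with Benjamini-Hochberg adjustment. A call required an adjusted p under 0.05 and at least 2-fold. Fold changes on this scale understate the change of low genes. Sums, shares and sequences were handled in Python 3.11.15 with pandas 2.3.3. The fit was tested on simulated data.

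Libraries were grouped by their labels. Values of every library are given for the highest member of each class, the 3 largest and 3 smallest changes per deletion and members called between the deletions. Log2 changes are given, from other lists, for SLBP, NPAT, H2AFZ, H2AFX, H3F3A, H3F3B and up to 4 called genes of largest change. Further genes were named after their values were seen. Members and lists were chosen with earlier results of these data known. Alternatives covered the pseudocount, filter, scaling, replicate block, variance, samples, transcript, recovered reads and thresholds. Same-numbered libraries were checked for shared deviations over all tested genes (correlations -0.08 to 0.107).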

Additional observations from a re-analysis of the deposited data

Results flagged for a closer look

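HIST1H1T, the linker histone gene of the testis, is listed because its change differed between the deletions by a direct test; 1 of 67 members is near the 1.6% of all tested genes called higher in ΔE2, and the gene passed the filter on low values through ΔE2 alone. The log2 difference of ΔE2 minus ΔSE12313-b was 3.23 ± 0.497 (SE; adjusted p = 0.00339; limma, Benjamini-Hochberg), with all 3 ΔE2 libraries above all 3 ΔSE12313-b libraries. It rests on 42 reads against 1, and it was called in each of the 20 alternatives in which HIST1H1T was tested.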

How the results depend on the processing

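The members called higher numbered 64 to 68 in ΔE2 and 64 to 66 in ΔSE12313-b over 21 alternatives, and 0 were called lower in any. Leaving out 1 library gave 66 to 67, 64 to 66 and, between the deletions, 1; without 1 control, the lone control is assumed to vary like the other groups. The replicate block gave 66, 65 and 1, and its lost call in each deletion was HIST1H2BB; over all tested genes the correlation of same-numbered libraries was over 0.1 in 1 of 7 pairs (-0.08 to 0.107), so the numbers were not taken as pairs, although replicate 2 was lowest for 63 of 67 members in both deletions. Requiring a mean of 1 FPKM left 0 members called between the deletions, because HIST1H1T was then not tested. The log2 ratio of the summed level in ΔSE12313-b was 3.32 with each library centred, against 3.61; leaving out libraries gave 3.51 to 3.75 in ΔE2 and 3.51 to 3.73 in ΔSE12313-b, and counting identical copies once, chosen after seeing the data, 3.499 and 3.51. HIST1H1T in ΔSE12313-b, not called, turned to -0.060 with voom on recovered reads. HIST1H2BB was called in 11 of 18 alternatives in ΔE2 and 8 of 18 in ΔSE12313-b, HIST1H3I in 19 and 15 of 20. Centring and quantile normalization of the companion lists, chosen after seeing the data, gave 6 and 5 processing factors higher in ΔE2; quantile normalization gave 1 chaperone lower in ΔE2, 9 higher in ΔSE12313-b and 11 RNAs without a poly(A) tail lower in ΔSE12313-b; centring gave 0 neighbours higher in ΔE2. The cause was not tested. Members with 3 reads or fewer are below what this depth can compare.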
